A study of Mus musculus with 20 samples.

Results

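Granzymes and the genes that act with them in cytotoxic lymphocytes were followed in single thymic IEL precursors (IELPs). These are CD4-CD8- thymocytes with an alpha beta T cell receptor and without surface NK1.1, from which intraepithelial lymphocytes (IELs) of the gut arise. The 8 genes are Gzma, Gzmb, Prf1, Nkg7, Ccl5, Fgl2, Ctsw and Xcl1, chosen by name, out of 25246 genes listed in the files, and all 8 were listed. They were chosen with earlier results of these data known. Cells came from mice of 3 genotypes. The number of animals per genotype is not settled, as the study writes of both mouse and mice. Each genotype is treated as 1 mouse below. The TBGR mouse, which carries a ZsGreen reporter of T-bet, was 4 weeks old. Its genotype label is wild type, with no C-myc allele named. The TBGR C-myc fl/fl mouse was 2 weeks old and carried loxP-flanked C-myc with no Cre named in its label, and the TBGR C-myc D/DCd4 mouse was 2 weeks old and had C-myc deleted by a Cre driven from Cd4, which is active from the CD4+CD8+ stage of the thymus. Cells were sorted by CD122, a receptor chain for IL-2 and IL-15, and by ZsGreen. The first population was CD122-T-bet-, and the other 3 were CD122+ and were named T-bet-, T-bet int or T-bet high after their ZsGreen. Each change to the next population in this order is called a step below. The TBGR mouse gave 2 libraries of each population. The C-myc fl/fl mouse gave 4 libraries that each held both T-bet- populations, and 4 that each held both T-bet+ populations. The C-myc D/DCd4 mouse gave 2 libraries of each T-bet- population. No library held its T-bet+ cells, which the study found almost absent from the thymus of such mice.

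Transcripts were counted by CEL-Seq2, which tags the 3′ end of each molecule with a unique identifier (UMI), so counts do not scale with gene length. Levels of different genes are not compared here. A cell was kept if it held at least 2000 transcripts outside mitochondrial genes and spike-ins, and 1413 of 1920 wells passed. The median depth of a library's cells ranged from 3298 to 7809.5 transcripts per cell, and the summed depth of a population in a library from 94268 to 775264 transcripts. The shallowest TBGR library was T-bet high library 2, in which 55 of 96 wells passed at a median of 3805. All 96 cell barcodes were shared in 90 of 190 pairs of libraries and none in the other 100, since plates reuse the same barcodes. The genes of the T cell receptor complex Cd3e, Cd3d and Cd3g were present in every population, at 195 to 728 counts per 1000000 (CPM). Each level below is the transcripts of a gene summed over the cells of a population, per 1000000 transcripts of all genes. Summed counts carry exact 95% intervals from the Poisson distribution and shares of cells carry Clopper-Pearson 95% intervals, which cover counting error only. With each genotype treated as 1 mouse, libraries and cells are not replicates of a condition. No test was run, and the spread between libraries is shown instead. In sums over cells, fewer cells with a gene and fewer transcripts per cell cannot be told apart, which is why shares of cells are given as well.

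Cytotoxic lymphocytes kill by releasing granules into the cleft with a target cell. Perforin, the product of Prf1, opens the target's membrane, and granzymes, which are serine proteases, enter and cut proteins inside. Granzyme B cleaves after aspartate and activates caspases, while granzyme A cleaves after lysine or arginine and acts without caspases. Nkg7 is a membrane protein of cytotoxic granules and Ctsw (cathepsin W) is a cysteine protease found mostly in NK cells and cytotoxic T cells. Ccl5 is a chemokine that draws T cells and monocytes, and Xcl1 is a chemokine that draws Xcr1+ dendritic cells. Fgl2 is a fibrinogen-like protein that can be secreted and is known for immune regulation. IELs of the gut are known for strong granzyme expression, and T-bet and Runx3 are known inducers of cytotoxic genes.

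On the GRCm38 build, Gzma lies at chr13:113093825-113100981 on the minus strand, Gzmb at chr14:56258838-56262260 on the minus strand and Xcl1 at chr1:164931644-164935527 on the minus strand. The other members lie at chr10:61297833-61304680 (Prf1, plus strand), chr7:43437073-43438249 (Nkg7, plus strand), chr11:83525778-83530518 (Ccl5, minus strand), chr5:21372642-21378374 (Fgl2, plus strand) and chr19:5465043-5468507 (Ctsw, minus strand). No 2 members share a chromosome, so none neighbours another. The sequence just upstream of Gzma and Gzmb is shown because these genes carry the contrast described below. That of Xcl1 is shown because it held both motifs searched, as did Nkg7, which is not shown. Capitals mark the letters TGTGGT or ACCACA, a core that Runx factors bind, and GGTGTGA or TCACACC, a core that T-box factors such as T-bet bind, searched on both strands. The sequences are from RefSeq GRCm38.p6, 5′ to 3′ in the direction of the gene, from chr13:113100982-113101231, chr14:56262335-56262584 and chr1:164935528-164935772, each on the minus strand.
Gzma: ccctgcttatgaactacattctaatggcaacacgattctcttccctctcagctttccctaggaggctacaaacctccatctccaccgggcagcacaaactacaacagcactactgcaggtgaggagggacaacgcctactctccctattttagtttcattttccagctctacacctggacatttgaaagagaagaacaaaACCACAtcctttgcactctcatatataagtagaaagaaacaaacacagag
Gzmb: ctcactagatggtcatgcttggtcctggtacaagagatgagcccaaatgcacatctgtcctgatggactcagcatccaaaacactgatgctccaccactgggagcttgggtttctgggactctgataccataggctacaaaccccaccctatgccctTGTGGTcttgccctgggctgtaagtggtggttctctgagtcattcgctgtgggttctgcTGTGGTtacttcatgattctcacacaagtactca
Xcl1: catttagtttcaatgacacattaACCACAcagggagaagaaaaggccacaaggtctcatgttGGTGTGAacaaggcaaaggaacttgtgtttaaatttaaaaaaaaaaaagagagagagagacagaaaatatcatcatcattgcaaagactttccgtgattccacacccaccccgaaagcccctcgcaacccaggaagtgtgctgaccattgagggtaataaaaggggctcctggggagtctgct

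Promoter sequence was at hand for 6 of the 8 members, all but Ccl5 and Ctsw. Within 250 bases before the RefSeq start, the Runx core stood 50 bases before the start of Gzma, and 93 and 34 bases before that of Gzmb. It also stood 130 bases before the start of Prf1, 83 before Nkg7 and 227 before Xcl1, while 14.0% of 32851 mouse promoter windows of this length held it. The T-box core was found 13 bases before the start of Nkg7 and 188 before that of Xcl1, against 3.33% of the windows. The core of Nkg7 lay past the start that the GENCODE annotation gives for this gene. The RefSeq start of Gzmb lay upstream of its GENCODE start, and the bases between these starts were not searched. No T-box core was in the windows of Gzma, Gzmb and Prf1, and neither core was in that of Fgl2. A match is a string of letters, not a bound site, and binding was not measured.

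Gzma and Gzmb followed different courses along the 4 populations. Gzmb was lowest in CD122-T-bet- cells and highest in T-bet high cells. Pooled Gzma was high at both ends and lower in between in the TBGR and C-myc fl/fl mice. In the latter 1 T-bet int library reached the levels of CD122-T-bet- cells and came close to the lowest of T-bet high cells. The Gzma of the 2 ends lay in cells of different make-up, as described further on.

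In the TBGR mouse, Gzma was at 33.1 and 286 CPM in the 2 CD122-T-bet- libraries. It was at 7.74 and 1.44 CPM in those of CD122+T-bet- cells, at 4.55 and 1.58 CPM in those of T-bet int cells and at 240 and 210 CPM in those of T-bet high cells. The libraries of both ends lay above all libraries of the middle populations, and the middle populations overlapped each other. Pooled, the levels were 161 CPM (interval 137 to 188), 4.77 (1.92 to 9.82), 3.09 (0.844 to 7.92) and 230 (196 to 268). The 2 CD122-T-bet- libraries differed from each other in that 22 of 87 cells carried Gzma in library 2 and 3 of 87 in library 1.

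Gzmb in the same mouse was at 0 CPM in both CD122-T-bet- libraries, where 0 of 174 cells held a transcript, which, taken as 3 counts of the total, allows a share of cells with a transcript of up to 1.72%. It was at 3.87 and 0 CPM in the CD122+T-bet- libraries and at 10.6 and 22.1 CPM in the T-bet int libraries. In T-bet high cells it was at 1063 and 767 CPM, with transcripts in 115 of 147 cells. The T-bet int libraries thus lay above those of T-bet- cells, and the T-bet high libraries far above all others.

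The C-myc fl/fl mouse gave the same order of Gzmb. Its Gzmb was at 0, 9.30, 4.45 and 6.10 CPM in CD122-T-bet- libraries 1 to 4 and at 78.4, 17.8, 27.1 and 21.2 CPM in the CD122+T-bet- cells of these libraries. It was at 77.2, 174, 317 and 57.0 CPM in T-bet int and at 1023, 1108, 930 and 1243 CPM in T-bet high cells of the other 4. The T-bet int values overlapped those of CD122+T-bet- cells through library 1 of the latter, and the other neighbours did not overlap. Gzma in this mouse was at 698, 130, 240 and 232 CPM in CD122-T-bet- cells, 18.4, 4.45, 9.02 and 10.6 CPM in CD122+T-bet- cells, 30.0, 10.04, 137 and 0 CPM in T-bet int cells, and 141, 807, 644 and 159 CPM in T-bet high cells. The values of the 2 ends overlapped each other, and both lay above those of CD122+T-bet- cells. The T-bet int values overlapped those of CD122-T-bet- cells through library 3, at 137 CPM, which also came close to the lowest of T-bet high cells. They overlapped those of CD122+T-bet- cells as well.

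**Figure D1:**
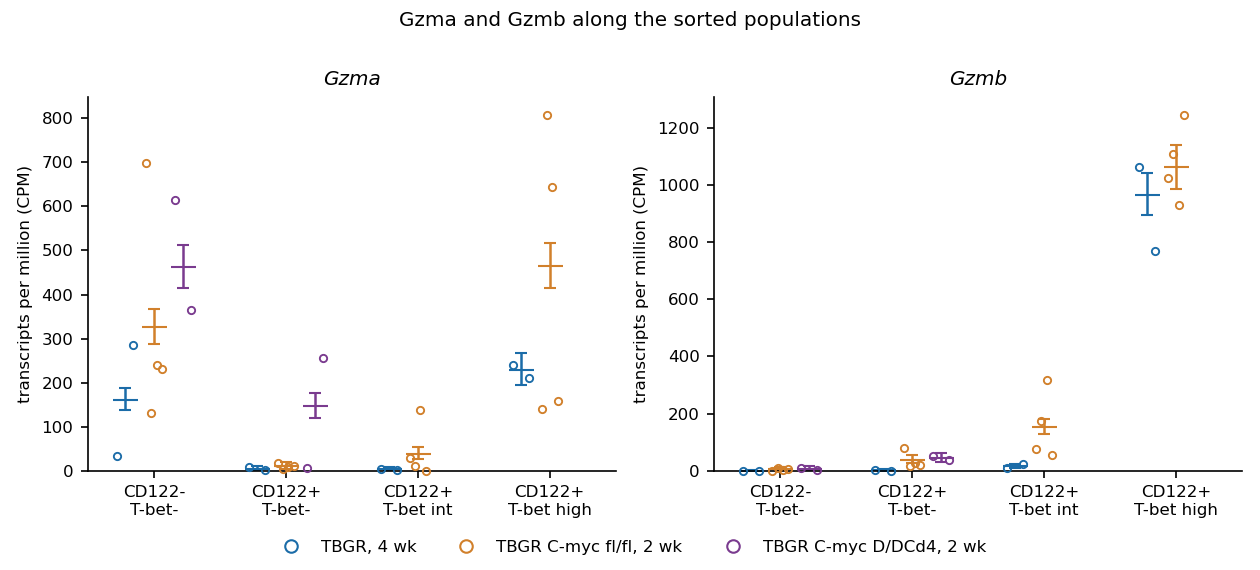
Level of Gzma (left) and Gzmb (right) in CPM by sorted population, where circles are libraries, horizontal marks the pooled level of a mouse and bars its exact 95% Poisson interval. Gzma of the TBGR mouse went from 161 to 4.77, 3.09 and 230 CPM, while its Gzmb went from 0 to 2.04, 16.2 and 965 CPM.

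Because both populations of a C-myc fl/fl library were prepared and sequenced together, their ratio can be taken within each library. At the first step Gzma was lower in all 4 libraries, by log2 ratios of -5.08 to -3.88. Gzmb was higher in all 4, by 0.78 to 5.06. Its intervals ran from -1.87 to 4.40 in library 2, -0.44 to 8.13 in library 3 and -2.46 to 7.68 in library 4. Both directions lay within these, while the interval of library 1 began at 1.97. At the third step both granzymes were higher in all 4 libraries, Gzma by log2 ratios of 2.16 to 6.11 and Gzmb by 1.54 to 4.37.

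Gzmb was rare at the CD122-T-bet- end, in cells with and without Gzma. None of the 25 Gzma+ cells of the TBGR mouse and none of the 25 of the C-myc fl/fl mouse held a Gzmb transcript, and 1 of 44 did in the C-myc D/DCd4 mouse. Among the cells without Gzma, 0 of 149, 4.21% of 95 and 3.57% of 84 held it, so no contrast between the 2 kinds of cell could be seen there. In T-bet high cells, 24 of 26 Gzma+ cells of the TBGR mouse also held Gzmb, which is 92.3% (interval 74.9 to 99.1), against 75.2% (66.5 to 82.6) of the cells without Gzma. The corresponding C-myc fl/fl shares were 93.1% of 29 cells (77.2 to 99.2) and 56.6% of 83 cells (45.3 to 67.5). With every cell thinned to 2000 transcripts they were 73.7% and 60.9% in the TBGR mouse and 84.2% and 49.5% in the C-myc fl/fl mouse. The intervals of the 2 kinds of cell overlapped in the TBGR mouse, thinned or not, and did not overlap in the C-myc fl/fl mouse.

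Markers of gamma delta T cells moved with Gzma at the CD122-T-bet- end. Trdc encodes the constant region of the delta chain, and Sox13 is a transcription factor of gamma delta thymocytes. Among TBGR CD122-T-bet- cells, 137 of 158 Gzma transcripts lay in the 28.2% of cells that held a Trdc or Sox13 transcript. This was 252 of 264 transcripts in 31.7% of cells of the C-myc fl/fl mouse, and in the C-myc D/DCd4 mouse 265 of 354 in 56.3% of cells. Without library 2 of the last it was 104 of 184 transcripts, or 56.5%, in 55.2% of cells, and Gzma was at 577 CPM in cells with Trdc or Sox13 and at 675 CPM in the others, against 543 and 321 CPM with both libraries. Thinned, library 1 alone gave 712 CPM with and 328 CPM without these markers, so the order of the 2 kinds of cell there turned with thinning. Counted as cells, 12 of 25 Gzma+ cells of the TBGR mouse, 22 of 25 of the C-myc fl/fl mouse and 36 of 44 of the C-myc D/DCd4 mouse held Trdc or Sox13, so the TBGR cells without them held little Gzma each. After thinning, 29 of 43, 57 of 71 and 65 of 99 Gzma transcripts lay in such cells. In T-bet high cells, 0 of 26 Gzma+ cells of the TBGR mouse held Trdc or Sox13, and of the 29 in the C-myc fl/fl mouse 0 held Trdc and 1 held Sox13. The whole list of gamma delta markers, of which 6 of 7 genes were listed, summed to 550 CPM in TBGR CD122-T-bet- cells and to 832, 1055 and 1365 CPM in the next 3 populations. That list is carried by the Tcrg-C genes, and Trdc, Sox13 and Trdv4 were at 0 in TBGR T-bet high cells. The cells were sorted for the beta chain of the receptor, and the part of these cells in the result was not tested.

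Cells with Gzma also differed from their neighbours in level. Among TBGR CD122-T-bet- cells, the 25 with Gzma held Trdc at 333, Sox13 at 408 and Tcrg-C1 at 842 CPM, and the 149 without Gzma held them at 30.2, 32.7 and 39.0 CPM. The C-myc fl/fl mouse gave 350, 394 and 560 CPM with Gzma and 56.7, 63.6 and 70.5 CPM without. All 3 genes were thus several times higher in the Gzma+ cells of both mice. In the C-myc D/DCd4 mouse the levels with Gzma were 451, 316 and 440 CPM, and those without were 256, 80.4 and 141 CPM. Gzma+ cells were deeper, with medians of 7830 against 4923 transcripts in the TBGR mouse, 6954 against 5812 in the C-myc fl/fl mouse and 5641.5 against 3915.5 in the C-myc D/DCd4 mouse, and the levels above are per transcript. The part of depth in detecting Gzma was not tested beyond the thinned counts.

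Single cells show this most plainly. The cell with the most Gzma among TBGR CD122-T-bet- cells held 37 Gzma, 0 Gzmb, 19 Trdc and 10 Sox13 transcripts. The leading cell among TBGR T-bet high cells held 41 Gzma, 21 Gzmb and neither Trdc nor Sox13. An exception stood in library 1 of the C-myc D/DCd4 CD122-T-bet- cells, where the leading cell held 73 Gzma transcripts and none of Trdc, Sox13, Tcrg-C1 or Gzmb.

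**Figure D2:**
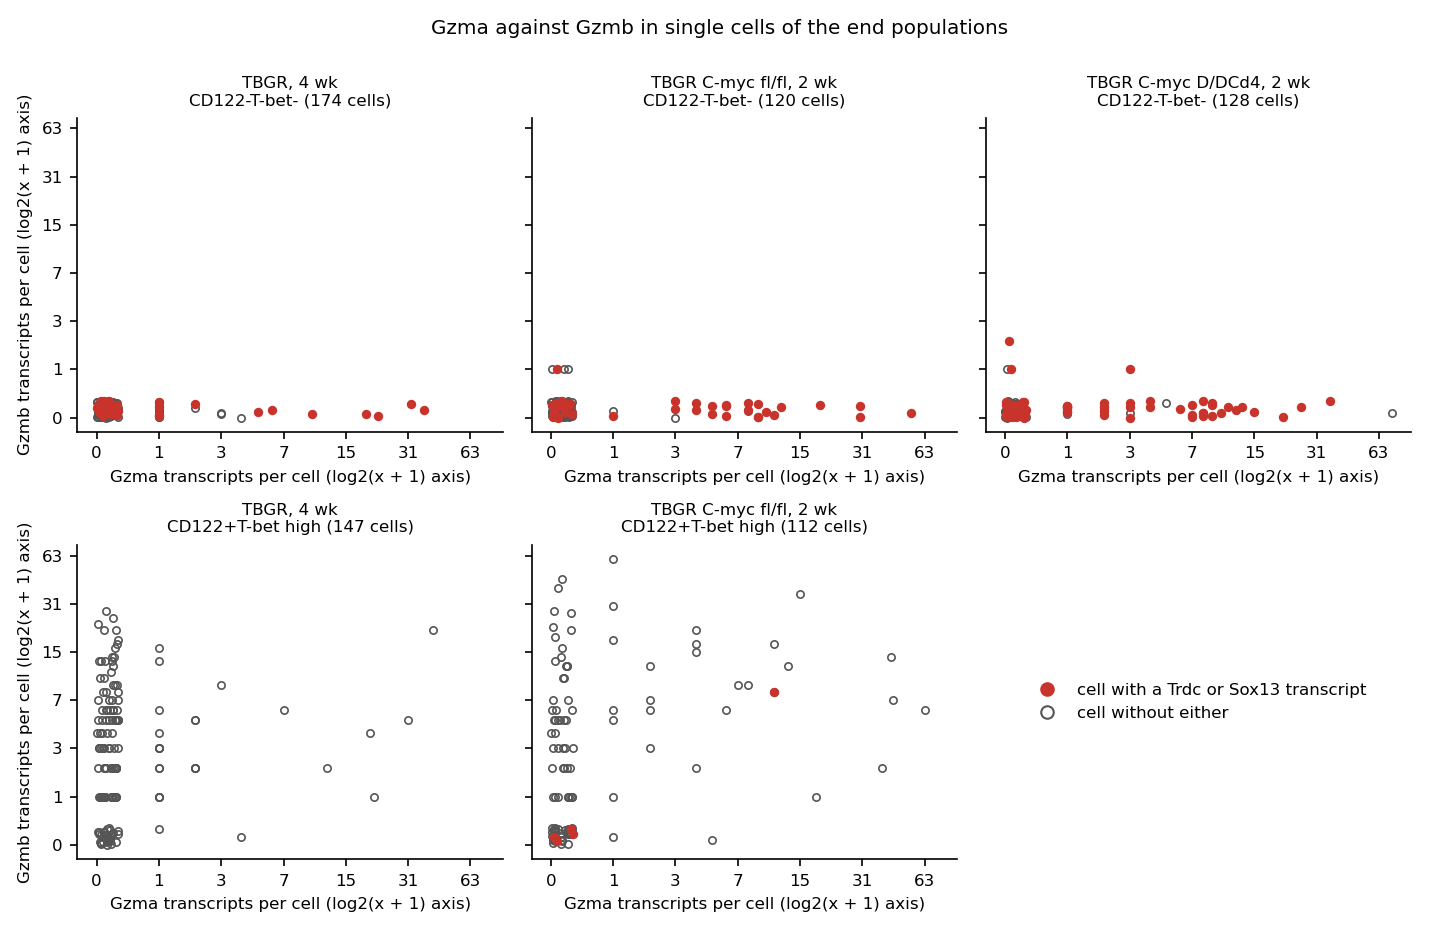
Gzma against Gzmb transcripts in each cell of the CD122-T-bet- (top) and T-bet high (bottom) populations, on log2(x + 1) axes. Filled circles are cells with a Trdc or Sox13 transcript, and cells at 0 are spread slightly to be seen. Gzma+ cells lie along the bottom of the top panels, with 1 exception in the C-myc D/DCd4 mouse, while 24 of 26 and 27 of 29 of them lie above 0 on the Gzmb axis in the bottom panels.

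Few cells held most of the Gzma. The 5 leading cells held 75.9% of its transcripts in TBGR CD122-T-bet- cells and 77.2% in TBGR T-bet high cells, where 25 of 174 and 26 of 147 cells carried the gene. Gzmb in TBGR T-bet high cells was spread more evenly, with 17.4% of transcripts in the 5 leading cells. The 5 leading T-bet high cells of the C-myc fl/fl mouse held 63.7% of Gzma and 28.3% of Gzmb. Mean transcripts per Gzmb+ T-bet high cell were 5.91 in the TBGR mouse and 10.03 in the C-myc fl/fl mouse. Thinned to 2000 transcripts, 62.6% (54.2 to 70.4) and 55.4% (45.7 to 64.8) of cells held it, and without thinning 78.2% and 66.1%.

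Among C-myc fl/fl T-bet high cells, those with Gzma held Gzmb at 1617, Fgl2 at 440 and Ccl5 at 90.9 CPM, and those without held them at 823, 181 and 1021 CPM. In this mouse Ccl5 was thus lower, and Gzmb and Fgl2 were higher, in cells with Gzma. In the TBGR mouse Ccl5 stood the other way, at 917 CPM (762 to 1094) with and 357 CPM (310 to 410) without Gzma. Its Gzmb was at 887 and 983 CPM and its Fgl2 at 611 and 687 CPM, with overlapping intervals for both genes. Of the 123 Ccl5 transcripts in TBGR cells with Gzma, 38 lay in 1 cell. Counted as cells, 61.5% of TBGR cells with and 44.6% without Gzma held Ccl5, and thinned 47.4% and 32.8%. The C-myc fl/fl shares were 24.1% and 57.8%, and thinned 21.1% and 44.1%.

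Prf1 was scarce, with 42 transcripts in all 1413 cells. In the TBGR mouse it was at 46.7 and 4.28 CPM in the 2 T-bet high libraries, with 22 and 1 transcripts, and at 0 in both T-bet int libraries. The difference between these populations was at least 14.1-fold, taken against 3 transcripts over the T-bet int cells, and rests on T-bet high library 1. The T-bet- cells of this mouse held 3 transcripts without and 4 with CD122. In T-bet high cells of the C-myc fl/fl mouse, which had more Gzmb per Gzmb+ cell, Prf1 was at 0, 0, 5.50 and 0 CPM, or 1 transcript in 112 cells. All 4 lay far under the first TBGR library and around the second.

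Of the granule proteins, Nkg7 was higher after every step. In the TBGR mouse it was at 0 and 22.1 CPM in CD122-T-bet- libraries, 95.5 and 67.8 CPM in CD122+T-bet- libraries, 456 and 384 CPM in T-bet int libraries and 866 and 767 CPM in T-bet high libraries. No 2 neighbouring populations overlapped. The share of cells with Nkg7, thinned to 2000 transcripts, was 1.15%, 12.9%, 53.8% and 76.2%. Pooled levels in the C-myc fl/fl mouse were 9.88, 47.5, 193 and 546 CPM, again without overlap between neighbours.

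Pooled Ctsw was likewise higher after every step, and it was present before CD122 was gained. Its TBGR levels were 51.7 and 48.3 CPM in CD122-T-bet- libraries, 197 and 182 CPM in CD122+T-bet- libraries, 368 and 391 CPM in T-bet int libraries and 776 and 677 CPM in T-bet high libraries. These did not overlap, and thinned shares of cells were 9.77%, 31.2%, 57.3% and 77.6%. Pooled C-myc fl/fl Ctsw was at 19.8, 106, 207 and 293 CPM, and the last 3 populations overlapped through their libraries. The CD122-T-bet- cells ranged from 4.85 to 51.2 CPM there and lay under all CD122+T-bet- libraries. Within each of the 4 C-myc fl/fl libraries with both T-bet+ populations, Ctsw was still higher in T-bet high cells, by log2 ratios of 0.18 to 1.32, and Nkg7 by 1.12 to 1.97.

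Ccl5 appeared at the T-bet int stage in the TBGR mouse. It was at 0 and 2.01 CPM in CD122-T-bet- libraries, 12.9 and 8.65 CPM in CD122+T-bet- libraries, 368 and 313 CPM in T-bet int libraries and 443 and 505 CPM in T-bet high libraries. The T-bet high libraries lay above the T-bet int libraries but by 1.36-fold only. The share of cells with Ccl5, thinned, was 27.5% (20.9 to 34.8) in T-bet int and 34.7% (27.0 to 43.0) in T-bet high cells, and without thinning 40.9% and 47.6%. The intervals overlapped in both cases.

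In the C-myc fl/fl mouse most of the Ccl5 appeared one step later. It was at 0 in all 4 CD122-T-bet- libraries, at 18.4, 0, 13.5 and 0 CPM in CD122+T-bet- cells, at 68.6, 93.7, 12.4 and 25.3 CPM in T-bet int cells and at 479, 802, 1194 and 401 CPM in T-bet high cells. The T-bet high libraries all lay above the T-bet int libraries. The thinned share of cells was 9.48% (4.83 to 16.3) in T-bet int and 40.2% (31.03 to 49.9) in T-bet high cells, and without thinning 14.7% and 49.1%. The 2 mice differ in age, plate and C-myc allele, which cannot be told apart.

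Xcl1 changed from a gene of few cells to a gene of most in the TBGR mouse. There it was at 0 and 10.1 CPM in CD122-T-bet- libraries, 33.5 and 92.3 CPM in CD122+T-bet- libraries, 214 and 147 CPM in T-bet int libraries and 526 and 253 CPM in T-bet high libraries. The 5 leading T-bet int cells held 50.9% of its transcripts and the 5 leading T-bet high cells 12.7%. The share of cells with it, thinned, was 14.0% (9.20 to 20.2) and 55.1% (46.7 to 63.3), and without thinning 35.7% and 80.3%. C-myc fl/fl Xcl1 was at 73.8, 49.0, 266 and 329 CPM in CD122+T-bet- cells and at 252, 226, 193 and 284 CPM in T-bet high cells, and these overlapped. There the thinned share of T-bet high cells with Xcl1 was 30.4% (22.0 to 39.8), and without thinning 41.1%. Pooled levels in this mouse were 39.5, 154, 176 and 234 CPM. Within libraries, Xcl1 was lower at the first step in library 2, by a log2 ratio of -1.27 (-2.47 to -0.24). In the other libraries it was higher, by 3.46 to 5.19. At the third step it was higher in 2 libraries, with log2 ratios of -0.33 to 1.02.

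Fgl2, like Gzmb, had most of its transcripts in T-bet high cells of the TBGR and C-myc fl/fl mice. In the TBGR mouse it was at 24.2 and 26.9 CPM in T-bet int libraries and at 730 and 557 CPM in T-bet high libraries, and its 4 libraries of T-bet- cells lay between 0 and 10.3 CPM. Thinned, it was found in 97 of 147 T-bet high cells and in 8 of 171 T-bet int cells, and without thinning in 129 and 20. In the C-myc fl/fl mouse the T-bet int libraries lay between 6.22 and 25.7 CPM and the T-bet high libraries at 222, 296, 314 and 175 CPM. The thinned share of T-bet high cells with Fgl2 was 66.0% (57.7 to 73.6) in the TBGR and 31.3% (22.8 to 40.7) in the C-myc fl/fl mouse, and without thinning 87.8% and 50.9%.

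**Figure D3:**
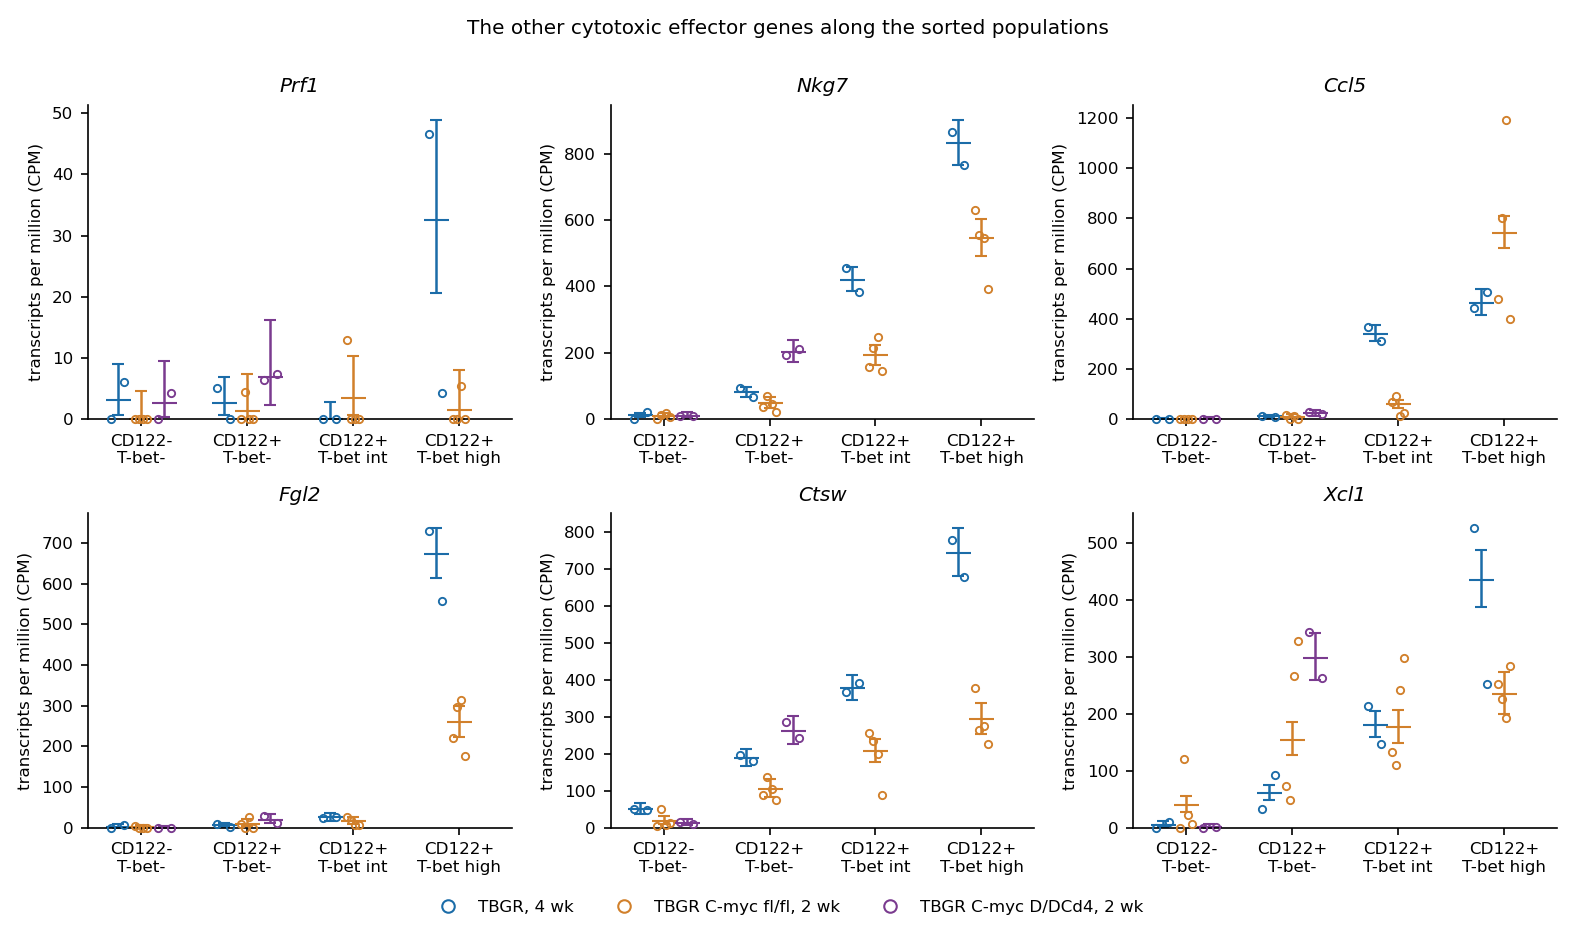
Level of the other 6 genes in CPM by sorted population, each panel with its own linear axis from 0. Circles are libraries, horizontal marks the pooled level of a mouse and bars its exact 95% Poisson interval. Ccl5 of the TBGR mouse stands at 341 CPM in T-bet int cells where that of the C-myc fl/fl mouse stands at 58.8 CPM.

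To set these steps beside all other genes, a gene was called between 2 populations if it differed by at least 2-fold, had at least 20 transcripts in both together and its libraries did not overlap. The members, like the pathway lists further on, were chosen with earlier results of these data known. Their counts beside the shares of all genes are therefore descriptions only. At the first step of the TBGR mouse, 4 members could be tested and Nkg7, Ctsw and Xcl1 were called higher, against 14.3% of 9262 genes. Gzma was called lower, against 3.92%. At the second step, 5 of 6 members tested were called higher (Gzmb, Nkg7, Ccl5, Fgl2 and Xcl1) against 3.49% of 9461 genes, and 0 lower against 6.94%. Gzmb, with 21 and 3 transcripts, lost its call without any 1 T-bet int library, and Xcl1 without CD122+T-bet- library 1. Ctsw, at 1.995-fold, fell just short. At the third step, 5 of 8 were called higher (Gzma, Gzmb, Prf1, Fgl2 and Xcl1) against 7.93% of 8564 genes, and 0 lower against 11.7%. Here Gzma was 66.2-fold, Gzmb 58.0-fold and Fgl2 26.0-fold higher, while Nkg7 at 1.98-fold and Ctsw at 1.96-fold again fell just short. The calls at this step became 3 without T-bet high library 1, which held nearly all Prf1 and the higher Xcl1, and 7 without T-bet high library 2, when Nkg7 and Ctsw joined.

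The median log2 ratio of the members tested was 2.37, 2.18 and 2.98 at these 3 steps, and 2.54 at the third with Prf1 at its lower bound. The median of all genes tested was 0.26, -0.02 and -0.09. Ratios are given relative to the total of all genes, and centring them on these medians turned the direction of none of the members tested at these steps.

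In the C-myc fl/fl mouse, where a gene had to clear 4 libraries a side, fewer genes were called in all. At the first step Gzmb, Nkg7 and Ctsw were called higher among 5 members tested, against 5.39% of 6790 genes, and Gzma lower against 0.928%. The call of Gzmb was lost without library 1 of these cells, and Xcl1 was called higher as well without library 2. At the second step only Nkg7 of 7 tested was called higher, against 0.562% of 7119 genes, and 0 were lower against 0.506%. Gzmb joined it without library 1 of T-bet- cells, Ccl5 without library 3 of T-bet+ cells and Ctsw without library 4 of T-bet+ cells. At the third step Gzma, Gzmb, Nkg7, Ccl5 and Fgl2 of 7 tested were called higher, against 1.36% of 6908 genes, and 0 lower against 2.58%. Here Gzma was 12.2-fold, Gzmb 6.92-fold, Ccl5 12.5-fold and Fgl2 15.2-fold higher. The median log2 ratio of the members was 2.20, 1.77 and 2.79, beside 0.48, 0.03 and -0.18 over all genes.

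Counting how many of the 8 genes a cell held, after thinning to 2000 transcripts, gives the same order of populations. The median was 0, 0, 2 and 4 genes per cell in the TBGR mouse and 0, 0, 1 and 3 in the C-myc fl/fl mouse. At least 4 of the 8 were found in 62.6% of TBGR and 27.7% of C-myc fl/fl T-bet high cells, and in 3.51% and 1.72% of T-bet int cells. Without thinning, 13 TBGR T-bet high cells held all members other than Prf1, against 1 C-myc fl/fl cell. Only 1 cell of 147 and 1 of 112 T-bet high cells held none after thinning.

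**Figure D4:**
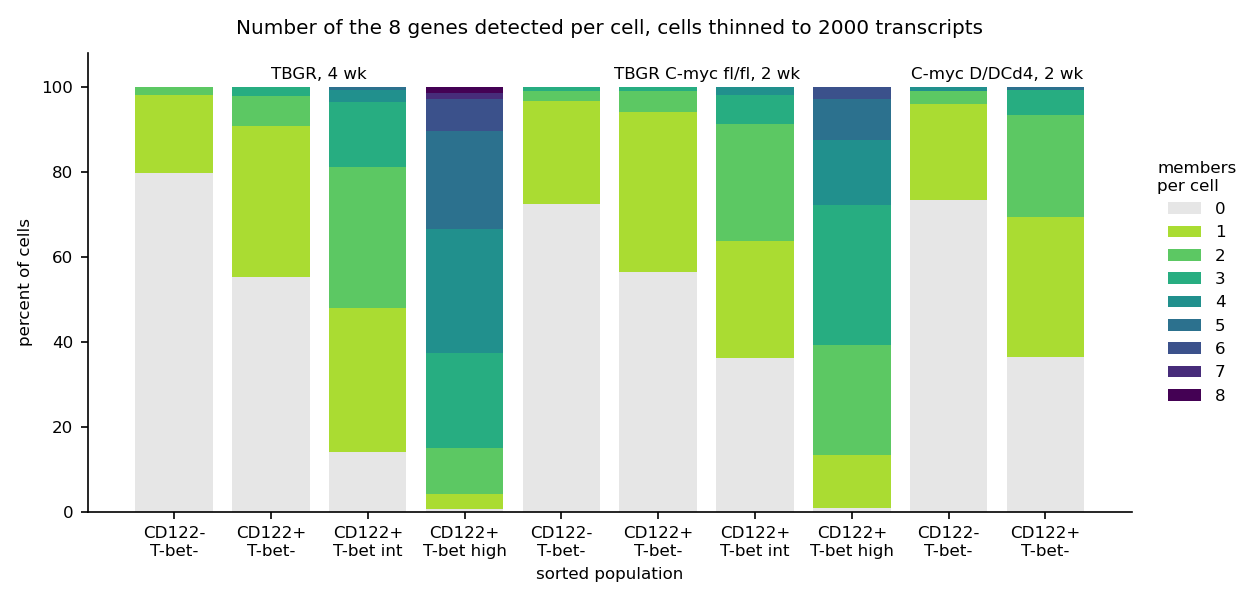
Percent of cells by the number of the 8 genes detected, after every cell was thinned to 2000 transcripts, for each population and mouse. The share of cells with none fell from 79.9% to 0.680% along the TBGR populations and from 72.5% to 0.893% along those of the C-myc fl/fl mouse.

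Within T-bet high cells of the C-myc fl/fl mouse, cells with Ccl5 were set beside those without. Thinned, 40.0% of the 45 cells with Ccl5 held Gzmb (interval 25.7 to 55.7), against 65.7% of the 67 cells without (53.1 to 76.8). For Fgl2 these shares were 15.6% (6.49 to 29.5) and 41.8% (29.8 to 54.5). The intervals overlapped for Gzmb and did not for Fgl2, and both shares were lower among Ccl5+ cells in each of the 4 libraries. In TBGR T-bet high cells the pooled shares were close, at 62.7% and 62.5% for Gzmb and 68.6% and 64.6% for Fgl2. The TBGR libraries ran opposite ways, with Gzmb at 78.1% and 66.7% in library 1 and at 36.8% and 55.6% in library 2. Fgl2 was at 68.8% and 70% in library 1 and at 68.4% and 55.6% in library 2. Cells within a mouse are not replicates, and these counts, like the levels by Gzma above, were looked at after the values were seen.

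In the C-myc D/DCd4 mouse the T-bet- populations could be compared with each other. Gzmb, Nkg7, Ctsw and Xcl1 of 5 members tested were called higher in CD122+T-bet- cells, against 13.4% of 7425 genes, and Gzma was called lower against 7.84%. Xcl1 was at 0 and 2.14 CPM in CD122-T-bet- libraries and at 343 and 264 CPM in CD122+T-bet- libraries. Nkg7 went from 10.04 and 10.7 CPM to 194 and 212 CPM. Ctsw went from 16.7 and 10.7 CPM to 286 and 244 CPM, and the share of cells with it, thinned, from 1.56% to 38.0%. These 3 genes were thus near their floor without CD122 and in many cells with it. Gzmb stayed rare, at 10.04 and 4.29 CPM and then 50.8 and 37.3 CPM. Gzma was at 616 and 364 CPM in CD122-T-bet- and at 6.35 and 256 CPM in CD122+T-bet- libraries, so the 2 libraries of the latter were far apart. Of the 103 Gzma transcripts in CD122+T-bet- library 2, 76 and 25 lay in 2 cells, both of which held Trdc and Sox13. The call of Gzma was lost without library 1 of CD122+T-bet- cells. The median of the members tested was 4.20 beside 0.13 over all genes.

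Leaving out cells with a Trdc or Sox13 transcript, a choice made after the values were seen, moved the first step of Gzma in all 3 mice but turned it in none. Its log2 ratio went from -4.98 to -3.92 in the TBGR mouse and from -4.86 to -1.92 in the C-myc fl/fl mouse. In the C-myc D/DCd4 mouse it went from -1.65 to -6.15. These ratios rest on 2 against 21, 4 against 12 and 2 against 89 transcripts. The C-myc fl/fl counts were too few for a call. Nkg7 at this step went from 2.82 to 5.15 in the TBGR and from 4.20 to 6.89 in the C-myc D/DCd4 mouse. Among the cells left in, Gzma was at 33.4, 1.81, 2.59 and 230 CPM along the TBGR populations. Along those of the C-myc fl/fl mouse it was at 24.2, 5.92, 32.3 and 474 CPM. There the CD122-T-bet- level thus lay below that of T-bet int cells and far below that of T-bet high cells. The ratios of Gzma between the C-myc genotypes moved as well, as given with them below.

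Between the C-myc genotypes, no member was called in CD122-T-bet- cells. There 3 members could be tested, and 0 were higher against 12.9% and 0 lower against 1% of 6893 genes. Xcl1 was at 1.31 CPM in the C-myc D/DCd4 and 39.5 CPM in the C-myc fl/fl mouse, with 1 against 32 transcripts. Its log2 ratio was -4.36 (-10.3 to -2.34), but its libraries overlapped. Gzma was at 462 CPM (416 to 513) in the C-myc D/DCd4 and 326 CPM (288 to 368) in the C-myc fl/fl mouse, and the libraries overlapped. Without cells that held Trdc or Sox13 it was at 321 against 24.2 CPM, and the log2 ratio went from 0.50 to 3.68. Of the 89 transcripts of the C-myc D/DCd4 mouse in that comparison, 73 lay in the leading cell described above. Without C-myc fl/fl library 1, which held the highest Gzma of these cells, Gzma was called higher and Xcl1 lower in the C-myc D/DCd4 mouse.

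In CD122+T-bet- cells, Nkg7, Ccl5 and Ctsw of 7 members tested were called higher in the C-myc D/DCd4 mouse, against 13.5% of 7312 genes, and 0 lower against 6.13%. Nkg7 was at 194 and 212 CPM against 36.9, 71.2, 45.1 and 21.2 CPM in the C-myc fl/fl mouse, a 4.24-fold difference. Ctsw was at 286 and 244 CPM against 87.6, 138, 104 and 74.3 CPM, a 2.48-fold difference. Ccl5 was at 28.6 and 19.9 CPM against 18.4, 0, 13.5 and 0 CPM, with 17 and 7 transcripts, and its call was lost without any 1 of C-myc D/DCd4 libraries 1 and 2 and C-myc fl/fl library 2. Gzmb was at 50.8 and 37.3 CPM and overlapped the 17.8 to 78.4 CPM of the C-myc fl/fl libraries, with an interval of -0.60 to 0.96 for the log2 ratio. Gzma was 13.1-fold higher in sum, with 105 against 8 transcripts, but its libraries overlapped. Without cells that held Trdc or Sox13 it was at 3.65 against 5.92 CPM, and the log2 ratio turned from 3.71 to -0.55, on 2 against 4 transcripts.

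In CD122+T-bet- cells the median of the members was 1.30 beside 0.18 over all genes. Markers of other cells also differed in sum in this comparison. The gamma delta list was at 1048 to 1147 CPM in the C-myc D/DCd4 libraries and 208 to 701 CPM in the C-myc fl/fl libraries. The NKT list was at 486 to 565 against 244 to 374 CPM, and the CD4+CD8+ list at 127 to 130 against 10.6 to 53.4 CPM. That of mast cells and basophils was at 127 to 187 against 9.22 to 63.6 CPM. Libraries of these lists did not overlap, while those of the NK cell and the myeloid and dendritic cell lists did. The list of 5 B cell genes was at 108.0 CPM in the lower and 503 CPM in the higher C-myc D/DCd4 library. In the C-myc fl/fl libraries it was at 69.1 to 108.3 CPM, so the libraries overlapped. Of the B cell genes, Cd79a, a chain of the B cell receptor complex, was at 23.7 CPM in the C-myc D/DCd4 and 0 CPM in the C-myc fl/fl mouse. Ms4a1, which encodes CD20, was at 51.6 and 2.64 CPM, and Ighm, the heavy chain of IgM, at 215 and 75.2 CPM. The part of these transcripts in the result was not tested, and mouse, plate and genotype cannot be told apart.

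The rest of the cytotoxic pathway was followed in lists of 56 genes, 52 of which were listed in the files. In the TBGR mouse 10 of 29 tested were called higher and 2 lower at the first step, against 14.3% and 3.92% of all genes. At the second step 10 of 31 were higher and 0 lower, against 3.49% and 6.94%, and at the third 11 of 32 were higher and 2 lower, against 7.93% and 11.7%. In the C-myc fl/fl mouse 9 of 24 were higher at the first step against 5.39%, 2 of 25 at the second against 0.562% and 7 of 27 at the third against 1.36%, and 0 were lower at any of the 3, against 0.928%, 0.506% and 2.58%. None of the granzymes other than Gzma and Gzmb could be tested, and Gzmc, with 18 transcripts in all cells, was the best detected of them.

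Of the granule contents, Srgn, the proteoglycan that packs granzymes in the granule, was already at 347 CPM in TBGR CD122-T-bet- cells and at 1129, 1125 and 1281 CPM in the next 3 populations. It was called higher at the first step in all 3 mice. Cst7, an inhibitor of the cathepsins that activate granzymes, went from 4.08 to 34.7, 75.1 and 92.2 CPM. Ctsc, the protease that trims granzymes to their active form, was called at the first step in both C-myc genotypes but not in the TBGR mouse, where it went from 63.2 to 68.8 CPM. Ctsl fell from 19.3 to 1.42 CPM at the third step of the TBGR mouse, and Ctsd rose from 157 to 414 CPM.

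Of the genes for granule release, 2 of 8 tested were called higher and 1 lower at the first step of the TBGR mouse. The shares of all genes were 14.3% and 3.92%. At the second step 2 of 8 were higher and 0 lower, against 3.49% and 6.94% of all genes. At the third 2 of 9 were higher and 1 lower, against 7.93% and 11.7%. In the C-myc fl/fl mouse 1 of 8 was called higher at the first step, against 5.39%. At its other steps 0 of 8 were called higher, against 0.562% and 1.36%. At the C-myc D/DCd4 step 3 of 8 were called higher, against 13.4%. These counts rest on few genes. Ap3b1, a subunit of the AP-3 adaptor that sorts proteins to lysosome-related organelles, was called higher at the first step in all 3 mice, from 71.4 to 206, from 53.1 to 117 and from 92.8 to 243 CPM. Sytl2 and Sytl3 encode proteins that tether granules through Rab27a, and their calls ran in opposite directions in the TBGR mouse. Sytl2 went at the first step from 49.0 to 12.9 CPM and Sytl3 from 1.02 to 12.9 CPM, and at the last Sytl2 went from 29.4 to 93.6 CPM and Sytl3 from 34.8 to 12.8 CPM. At the second step both were called higher. Lyst, which controls granule size, rose from 10.1 to 36.9 CPM at the last step. Rab27a and Stxbp2 were not called at any step in the TBGR or C-myc fl/fl mouse, and Rab27a was at 67.3, 55.8, 68.1 and 89.4 CPM in the TBGR mouse.

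Of the inhibitors that shield a killer cell from its own granzymes, 2 of 3 tested were called higher at the first TBGR step. At the second TBGR step 0 of 3 were called higher and at the third 1 of 3. The shares of all genes at these steps were 14.3%, 3.49% and 7.93%. The C-myc fl/fl counts were 1 of 2, 0 of 3 and 2 of 3, against 5.39%, 0.562% and 1.36%. At the C-myc D/DCd4 step 2 of 2 were called higher, against 13.4%. None was called lower at any of these steps, where 0.506% to 11.7% of all genes were. At the first step of the TBGR mouse Serpinb9 went from 5.10 to 14.3 CPM and Serpinb6b from 20.4 to 67.4 CPM, and Serpinb6a went from 13.6 to 44.9 CPM in the C-myc fl/fl mouse. Serpinb9, the mouse inhibitor of granzyme B, went from 27.1 to 152 CPM at the third step in the TBGR mouse and from 16.5 to 52.9 CPM in the C-myc fl/fl mouse, and was called in both. Serpinb6b was called at this step in the C-myc fl/fl mouse, from 31.7 to 109 CPM, and went from 97.5 to 194 CPM in the TBGR mouse without a call.

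Of the death ligands and cytokines, Fasl, the ligand of the Fas receptor, was at 3.87 CPM before and 138 CPM after the third step of the TBGR mouse, and at 0 and 14.3 CPM in the C-myc fl/fl mouse. Only the first of these had enough transcripts to be called. Ifng rose at this step in both mice, from 11.6 to 115 CPM and from 8.23 to 72.9 CPM. Tnfsf10, which encodes TRAIL, rose earlier in the TBGR mouse, from 6.12 to 35.4 and 81.2 CPM, and stood at 59.6 CPM in T-bet high cells.

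Among regulators, Tbx21, the gene of T-bet on whose reporter the cells were sorted, went from 48.0 to 165 CPM at the last step of the TBGR mouse, which the sort set. Id2 went from 453 to 1710 CPM, Hopx from 75.8 to 251 CPM and Bhlhe40 from 10.1 to 102 CPM. Il2rb, which encodes CD122 and was likewise sorted on, went from 7.14 to 269 CPM at the first step. Runx3, a factor of cytotoxic lineages, was called at the first step in all 3 mice, at 54.1 and 122 CPM in the TBGR mouse.

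**Figure D5:**
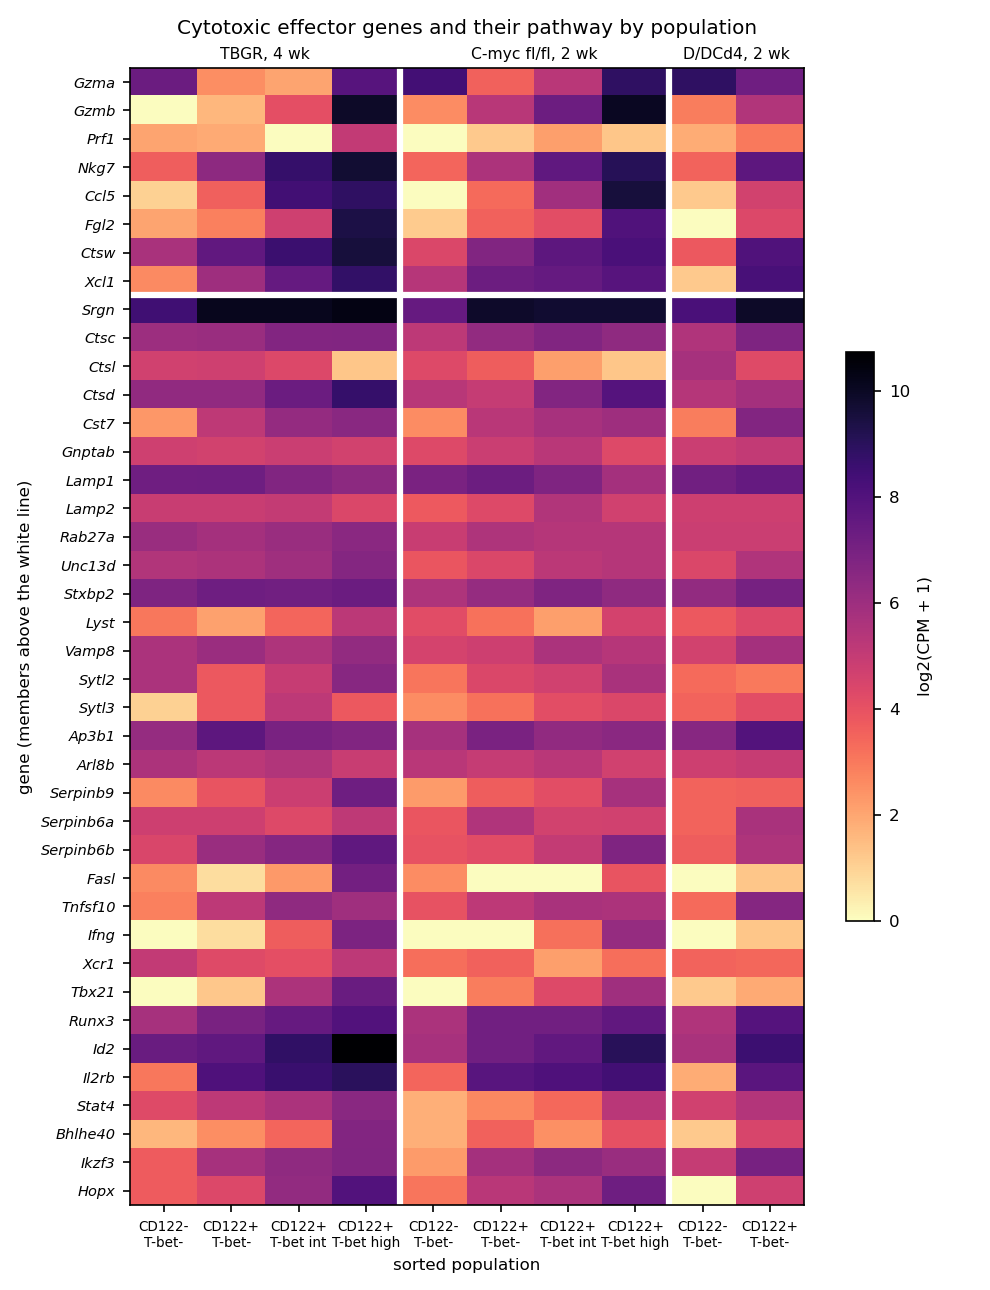
Level of the 8 genes (above the white line) and of the pathway genes with at least 100 transcripts, as log2(CPM + 1), with a column for each population and mouse. Srgn is dark in all CD122+ columns, at 859 to 1281 CPM, while Fasl, Ifng and Serpinb9 darken in the T-bet high columns.

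Between the C-myc genotypes, 4 of 19 pathway genes tested were called higher in the C-myc D/DCd4 mouse and 0 lower in CD122-T-bet- cells, against 12.9% and 1% of all genes. In CD122+T-bet- cells 11 of 27 were higher and 0 lower, against 13.5% and 6.13%, and the granule release genes Unc13d, Lyst, Vamp8 and Ap3b1 were among them. Within the C-myc D/DCd4 mouse, 14 of 25 were higher and 1 lower in CD122+T-bet- cells, against 13.4% and 7.84%. Id2, Cst7, Tnfsf10 and Serpinb6b were among those higher in CD122+T-bet- cells of the C-myc D/DCd4 mouse, with Cst7 at 102 against 37.0 CPM.

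Markers of NK cells moved with the members too. The list, with 5 of 6 genes in the files, summed to 18.4, 102, 382 and 790 CPM along the TBGR populations and to 11.1, 147, 304 and 716 CPM along those of the C-myc fl/fl mouse. Ncr1, a defining receptor of NK cells, was at 0 in all populations other than C-myc fl/fl T-bet high cells, where it was at 4.29 CPM, and Eomes, a T-box factor of NK cells, was at 0 in TBGR and at 14.3 CPM, or 10 transcripts, in C-myc fl/fl T-bet high cells. The sum was carried by Fcer1g and by Klrb1c, which encodes NK1.1 and was at 563 CPM in TBGR T-bet high cells sorted as NK1.1-. Trbc1 stood at 1988 to 4647 CPM in every population. The list of CD4+CD8+ thymocytes, all 8 genes of which were in the files, summed to 717 CPM in TBGR CD122-T-bet- cells and to 114, 128 and 140 CPM in the next 3. The NKT cell list, with all 5 genes in the files, summed to 153, 429, 527 and 204 CPM along the TBGR populations, so it was lower in T-bet high than in T-bet int cells while Gzmb was higher. The part of such cells in the results was not tested.

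The genes whose levels over the 28 sums of library and population ran most like those of Gzmb were Cxcr3, Adam19, Ly6c2, Efhd2 and Klrd1, with Pearson correlations of log2(CPM + 1) of 0.90, 0.85, 0.83, 0.82 and 0.82 among 5870 genes. Cxcr3 was at 0, 0, 43.3 and 275 CPM along the TBGR populations. For Gzma no gene came as close. Rras2, Thy1, Impdh1, Dntt and Slc16a10 led with 0.59, 0.58, 0.57, 0.56 and 0.54, and the correlation of Gzma with Gzmb was 0.19. Dntt, the terminal transferase of early thymocytes, was at 35.7, 4.77, 0.774 and 25.5 CPM along the TBGR populations. These sums share mice, libraries and depth, so the correlations only describe them. With Spearman's correlation 3 of the 5 stayed for each gene, and with at least 500 transcripts per gene 3 stayed for Gzmb and 1 for Gzma.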

How the data were processed

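Single IELPs were sorted into plates and prepared by CEL-Seq2. The GEO text calls the cells NK1.1+ and the study's methods NK1.1-, which was followed. The authors aligned reads to GENCODE VM9 transcripts with bwa (0.6.2-r126 in the submitters' processing notes, which also name bcl2fastq 2.17.1.14), counted UMIs of 6 bases (4096 possible) per gene and cell, and corrected them for UMIs drawn more than once. The authors deposited these estimated counts of transcripts without normalization. Each value lay within 4.09e-12 of a whole number of UMIs once the correction was undone. Values were rounded here, which moved no ratio of a member beyond its interval.

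Wells were assigned to populations by the descriptions deposited with the counts. Of 192 barcodes per library, 96 held no cell and were left out. Totals leave out genes named mt- and ERCC-, and cells with at least 2000 transcripts were kept. None of them exceeded 2% of Kcnq1ot1. Wells held 1 sorted cell and no doublet caller was run. Sums per population and library were taken as CPM, with 0.5 transcripts added to each sum before log2 ratios. A gene with 0 transcripts was given the bound that 3 transcripts over the group allow. Shares of cells with a member were compared between populations and mice after thinning each cell to 2000 transcripts, which left out no cell, and are also given without thinning. Cells with and without Gzma were also counted without thinning. No test between populations or genotypes was run, because each genotype is treated as 1 mouse. Calls needed a 2-fold difference, 20 transcripts and no overlap of libraries, over all genes. The scripts were tested on simulated data. Python 3.11.15, numpy 2.4.6, scipy 1.17.1, pandas 2.3.3 and matplotlib 3.10.9 were used.

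Some items of the lists are not reported here. The members and lists were chosen with earlier results of these data known. Named genes are the 8 members, list genes called or with at least 100 transcripts in all cells, and for Gzma and Gzmb the 5 genes, other than members, of the highest correlation among those with at least 200 transcripts. Promoter letters were read from RefSeq GRCm38.p6 and cut where they reached the GENCODE start of the gene. Alternatives changed the minimum of transcripts, added count, thinning, weighting, total, centring, call rule and libraries used.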

Additional observations from a re-analysis of the deposited data

Results flagged for a closer look

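Of 30 groups of 4 libraries in the C-myc fl/fl mouse, 6 held a library that stood apart from the other 3 by Dixon's test at the 95% level. That level holds for values of a normal distribution. A group at 0 in all libraries but 1 is always flagged, so 6 flags do not show an excess of outliers. Gzmb in CD122+T-bet- library 1 was at 78.4 CPM, with 17 transcripts in 2 cells, and Ctsw in CD122-T-bet- library 2 was at 51.2 CPM. The other 4 rest on 1 to 3 transcripts in a gene at 0 elsewhere in its group. They are Prf1 at 4.45 CPM in CD122+T-bet- library 2, at 12.9 CPM in T-bet int library 1 and at 5.50 CPM in T-bet high library 3, and Fgl2 at 4.85 CPM in CD122-T-bet- library 1.

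The 1920 barcodes that held no cell carried 51080 transcripts in all, and members were among them. Gzma had 5 transcripts there, Gzmb 8, Nkg7 6, Ccl5 12, Fgl2 5, Ctsw 12 and Xcl1 8, which is above the 3 counts that a count of 0 allows, while Prf1 had 1. Each was in at most 12 of the 1920 barcodes. In cells that passed, the same genes had 1419, 1645, 2007, 1380, 737, 2017 and 1314 transcripts.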

How the results depend on the processing

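Of 52 log2 ratios of members, 32 of them called, 828 values under alternatives were computed, of which 769 stayed within the counting interval of the value reported, 59 moved beyond it and 0 turned a called ratio around. With every cell thinned to 2000 transcripts, Gzma was at a log2 ratio of 4.63 at the third TBGR step and -2.06 at the C-myc D/DCd4 step. Without cells that held Trdc or Sox13, chosen after seeing the data, Gzma at the first step was at -3.92 in the TBGR, -1.92 in the C-myc fl/fl and -6.15 in the C-myc D/DCd4 mouse. These values rest on 2 against 21, 4 against 12 and 2 against 89 transcripts. Between the C-myc genotypes, where Gzma was not called, leaving out these cells moved its ratio from 0.50 to 3.68 in CD122-T-bet- cells and turned it from 3.71 to -0.55 in CD122+T-bet- cells. At the C-myc D/DCd4 step Gzma was at -2.04 as a mean over cells and at -3.16 without the leading cell of each group. With at least 100 transcripts required, 3 members were called higher at the second TBGR step and 0 at the first C-myc fl/fl step, where fewer members could be tested. With overlap of libraries allowed, 4 were called higher at the second C-myc fl/fl step and 1 lower between genotypes in CD122-T-bet- cells.

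Leaving out each library in turn, Gzma ranged from -6.22 to -2.74 at the first TBGR step, from 0.44 to 2.25 at the second and from 2.62 to 4.73 at the third C-myc fl/fl step, and from -5.87 to -0.85 at the C-myc D/DCd4 step. Gzmb ranged from 1.57 to 2.73 at the second and from 2.54 to 3.26 at the third C-myc fl/fl step. The uncalled Gzma ratio between genotypes in CD122+T-bet- cells ranged from -0.50 to 4.52, and was below 0 without C-myc D/DCd4 library 2. The cause of these moves was not tested, and 1 or 2 cells held most of the transcripts of Gzma where it moved most. Of 80 shares of cells, 38 lay outside their interval when cells were not thinned. No paired test was run, and the ratios within C-myc fl/fl libraries, which pair the 2 populations of a library, are descriptions. Depth limits Prf1, with 42 transcripts in all cells, and the granzymes other than Gzma and Gzmb.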
